A study of Mus musculus with 9 samples.

Results

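The interferon response and antigen presentation genes were followed in ventricles of mice with 3 combinations of cardiac growth transgenes. Members were the probe sets of the array whose only gene symbol starts with Ifi, Irf, Isg, Oas, Gbp, Stat or H2-, or is B2m, Tap1, Tap2, Tapbp, Cd74, Mx1, Mx2, Usp18 or Bst2, leaving out the Irf2bp genes. The rule used names and no measured value. It took 92 of 12488 probe sets, or 73 of the 8251 genes that are the only symbol of a probe set. Another 15 probe sets list several symbols with at least 1 of these families among them and were not members.

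Each of 9 arrays held total RNA from both ventricles of a single female mouse, 3 months old. All 9 mice overexpressed the IGF1 receptor (IGF1R), through which the growth factor IGF1 acts, from a transgene, and 3 had no other transgene (the IGF1R group). It was crossed with a constitutively active p110 subunit of phosphoinositide 3-kinase (PI3K) in 3 mice (IGF1R-caPI3K) and with a dominant negative p110 in 3 mice (IGF1R-dnPI3K). The sources used here do not give the promoters that drive the transgenes. Mice without a transgene or with a PI3K transgene alone were not analysed here, so that no value is relative to a normal heart. The comparisons ask whether raising or lowering PI3K activity on top of the receptor goes with other levels of these genes.

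Interferons are signalling proteins that cells release on infection. Type I interferons and interferon gamma bind separate receptors, whose kinases activate Stat factors. These and the Irf factors switch on a shared set of response genes, such as the Gbp, Oas, Ifi and Mx genes. Interferon gamma also raises the antigen presentation machinery. Class I molecules, made of a heavy chain and beta-2-microglobulin, are found on most cells and show peptides from inside the cell. Class II molecules are made mainly by macrophages, dendritic cells and B cells, and show peptides from material taken up. In the heart muscle these cells lie among the cardiomyocytes, the endothelium and the fibroblasts.

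Values are the deposited signals, on a linear scale on which every array has nearly the same 2% trimmed mean (500.3 to 500.4). A probe set was tested where its signal was above the 40th percentile of its array on at least 3 arrays, which held for 7898 probe sets and for 62 of the 92 members, of 52 genes. Differences are on the log2 scale, after raising signals to a floor of 32.4, and a difference was called at a limma p-value under 0.05 after Benjamini-Hochberg adjustment over all 7898. For CreX, a spiked hybridisation control, the 3'/5' ratio moved with the groups, from 1.05 to 1.26 in IGF1R through 1.74 to 1.89 in IGF1R-caPI3K and 1.79 to 1.83 in IGF1R-dnPI3K. The ratio of Gapdh, from the RNA itself, was 0.747 to 0.818 in IGF1R and 0.843 to 0.943 on the 6 arrays of the PI3K groups. The part of these ratios in the results was not tested. IGF1R-dnPI3K replicate 3 was the least like the others, with a mean Pearson correlation of 0.931 across probe sets to the other 8 arrays, against 0.950 to 0.9545 for the rest. Its 3'/5' ratio for Pcx was 3.25, against 1.40 to 2.11 on the others. Median signals were 160.6 to 196.7. All 11 measured cardiomyocyte markers passed the filter. Among members, 23 of the 62 tested have names marking probe sets that may match several related transcripts, most of them class I heavy chains.

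Few members differed between the groups. No member of 62 was called between IGF1R-caPI3K and IGF1R, where 0.215% of all tested probe sets were called by limma, 0.152% as higher and 0.0633% as lower. At an unadjusted p under 0.05 there were 7 of 62 members, against 18.4% of all probe sets. Between IGF1R-dnPI3K and IGF1R 1 member of 62 was called, H2-Oa, lower in IGF1R-dnPI3K, where 13.5% of all tested probe sets were called, 5.7% as higher and 7.8% as lower. The unadjusted count was 9 of 62, against 32.2%. Between IGF1R-caPI3K and IGF1R-dnPI3K 1 member was called, Ifitm2, lower in IGF1R-caPI3K, where the background was 1.24%, with 0.734% higher and 0.506% lower. Unadjusted, 8 of 62 members passed, against 15.4%. The latter comparison shares its arrays with the other 2.

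The members' median log2 difference was 0.02 for IGF1R-caPI3K against IGF1R (all tested probe sets -0.04), -0.05 for IGF1R-dnPI3K against IGF1R (all -0.09) and 0.10 for IGF1R-caPI3K against IGF1R-dnPI3K (all 0.05). Groups did not overlap for 17.7% of the members in each of the comparisons with IGF1R, where 32.9% and 34.4% of all probe sets had groups that did not overlap. Between the 2 PI3K groups the share was 14.5%, against 19.5%. In the plot of fitted differences members lie on both sides of 0 in each comparison, 33, 27 and 38 of 62 above it. The scale matters for signs near 0: scaling arrays to a common median moved the median of all probe sets for IGF1R-dnPI3K against IGF1R from -0.09 to 0.075, and the calls over all probe sets from 450 higher and 616 lower to 832 higher and 333 lower. The members' own median for IGF1R-dnPI3K against IGF1R turned to 0.02 with quantile normalization, 0.11 with a common median and 0.05 without IGF1R-dnPI3K replicate 3. It was 0.01 with the filter at the 60th percentile and 0.25 with a block for the series of mouse numbers. Between the PI3K groups it turned to -0.35 with that block, -0.10 without IGF1R-dnPI3K replicate 3 and -0.01 without replicate 2. With the block the differences of IGF1R-dnPI3K rest on replicate 1 alone, since replicates 2 and 3 share a series with no other mouse. H2-Oa stayed lower under both other scalings but was no longer called, and Ifitm2 stayed called under both.

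**Figure D1:**
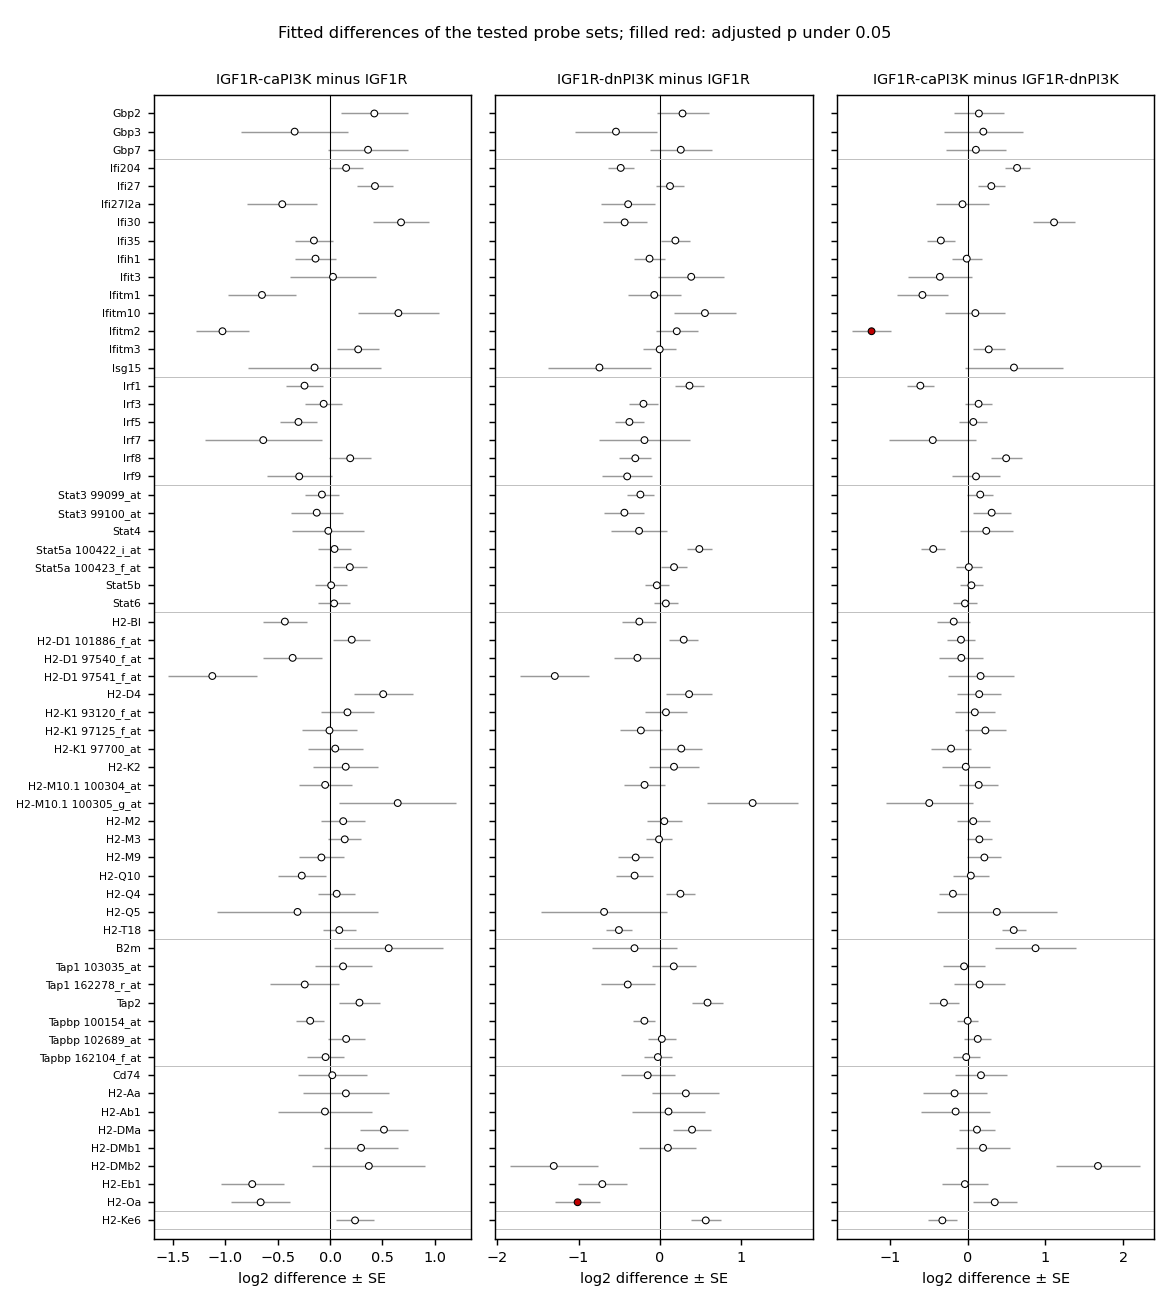
Fitted log2 differences ± SE (x axes) of the 62 tested member probe sets (rows, grouped by role) in the 3 comparisons; filled red points have an adjusted p under 0.05. H2-Oa, between IGF1R-dnPI3K and IGF1R, and Ifitm2, between the 2 PI3K groups, are the only filled points.

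The spread between mice of a group was larger in the members than over all probe sets. For members the median SD of log2 signal over the 3 mice was 0.21 in the IGF1R group, 0.24 in the IGF1R-caPI3K group and 0.34 in the IGF1R-dnPI3K group. For all probe sets it was 0.16, 0.16 and 0.26. An SD over 0.5 occurred in 12.9%, 12.9% and 32.3% of members, against 6.86%, 7.43% and 17.6% of all probe sets. How the spread of the IGF1R-dnPI3K group divides between its 3 mice was not tested. Its replicate 3 was the lowest of the group in 33 of 62 members (53.2%, all probe sets 44.4%). Replicate 1 had the highest signal of its group in 46 of 62 members (74.2%), against 41% of all tested probe sets. It stood at a median of 0.49 above the mean of the other 2 on the log2 scale (all probe sets 0.08). It also had the highest signal of all 9 arrays in 24 of 62 members (38.7%, all probe sets 9.69%). These shares were read after the pattern had been seen and carry no test. Among the 39 tested members whose names mark no shared target, replicate 1 was highest in 29 (74.4%).

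The roles took part in this to different degrees. Replicate 1 was the highest of its group in 8 of 8 class II members, 7 of 7 members of the light chain and loading group, 3 of 3 Gbp members and 14 of 18 class I heavy chains. It was highest in 4 of 6 Irf, 4 of 7 Stat and 6 of 12 Ifi and Isg members. In the IGF1R group replicate 2 was highest in 13 of 18 class I heavy chains and 3 of 3 Gbp members, but in 0 of 7 Stat members. In the IGF1R-caPI3K group replicate 3 was lowest in 36 of 62 members (58.1%, all probe sets 34.6%).

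**Figure D2:**
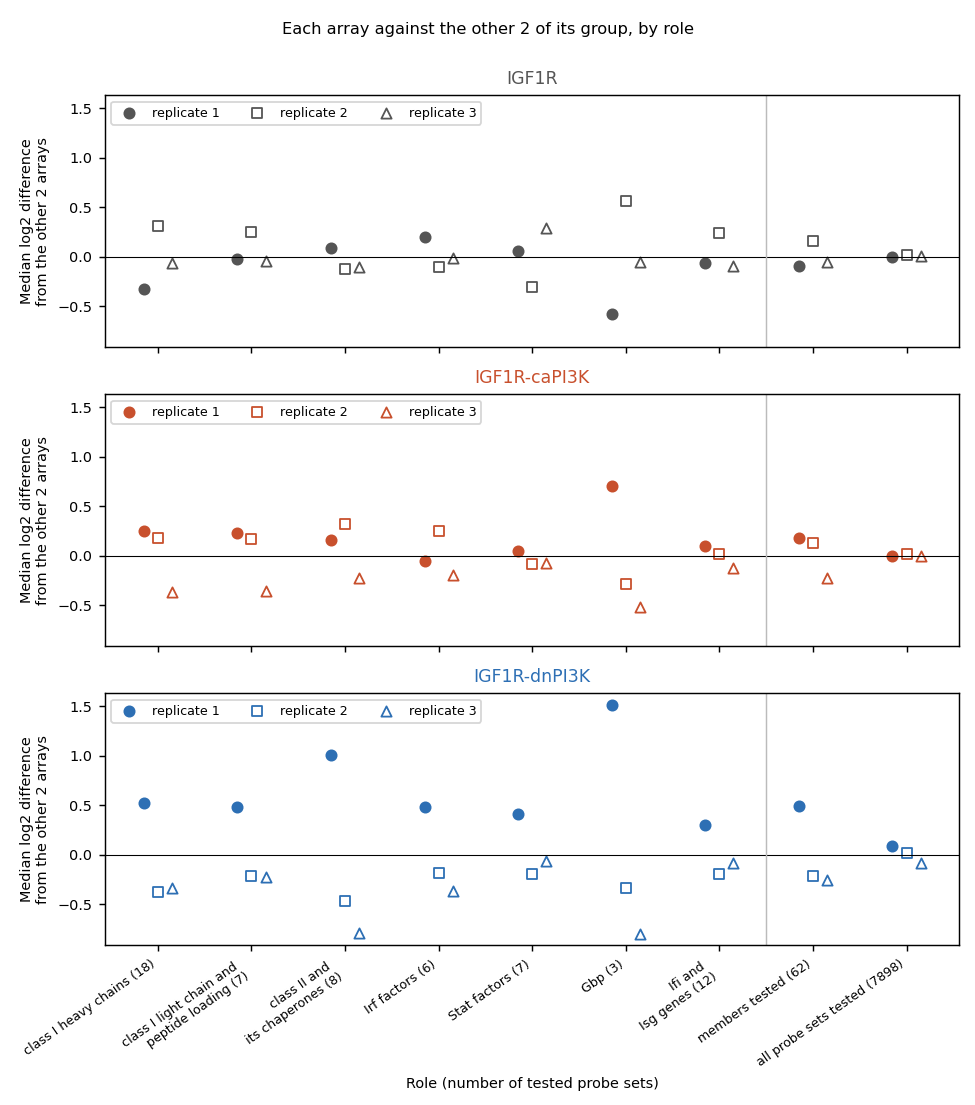
Median log2 difference of each array from the mean of the other 2 arrays of its group (y axis), by role, with the number of tested probe sets in brackets; circles, squares and triangles are replicates 1, 2 and 3. IGF1R-dnPI3K replicate 1 lies at 1.01 for class II and 1.52 for Gbp members, against 0.08 for all probe sets.

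The title of each sample holds a mouse number, and the leading digits of these numbers fall into 3 series. IGF1R-dnPI3K replicate 1 belongs to the series of IGF1R replicate 3 and IGF1R-caPI3K replicate 1, while IGF1R-dnPI3K replicates 2 and 3 share a series with no other mouse. Within the former series, 1 mouse per group, the members' median was 0.28 for IGF1R-dnPI3K against IGF1R (42 of 62 above 0, all probe sets -0.04) and 0.12 for IGF1R-caPI3K against IGF1R (39 of 62 above 0, all probe sets -0.04). Within another series, with 2 mice in each group, the median for IGF1R-caPI3K against IGF1R was -0.04 (27 of 62 above 0, all probe sets -0.03). What the numbers stand for is not given, and the part of the series in the spread was not tested. For IGF1R-dnPI3K the series and the spread within the group cannot be told apart.

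**Figure D3:**
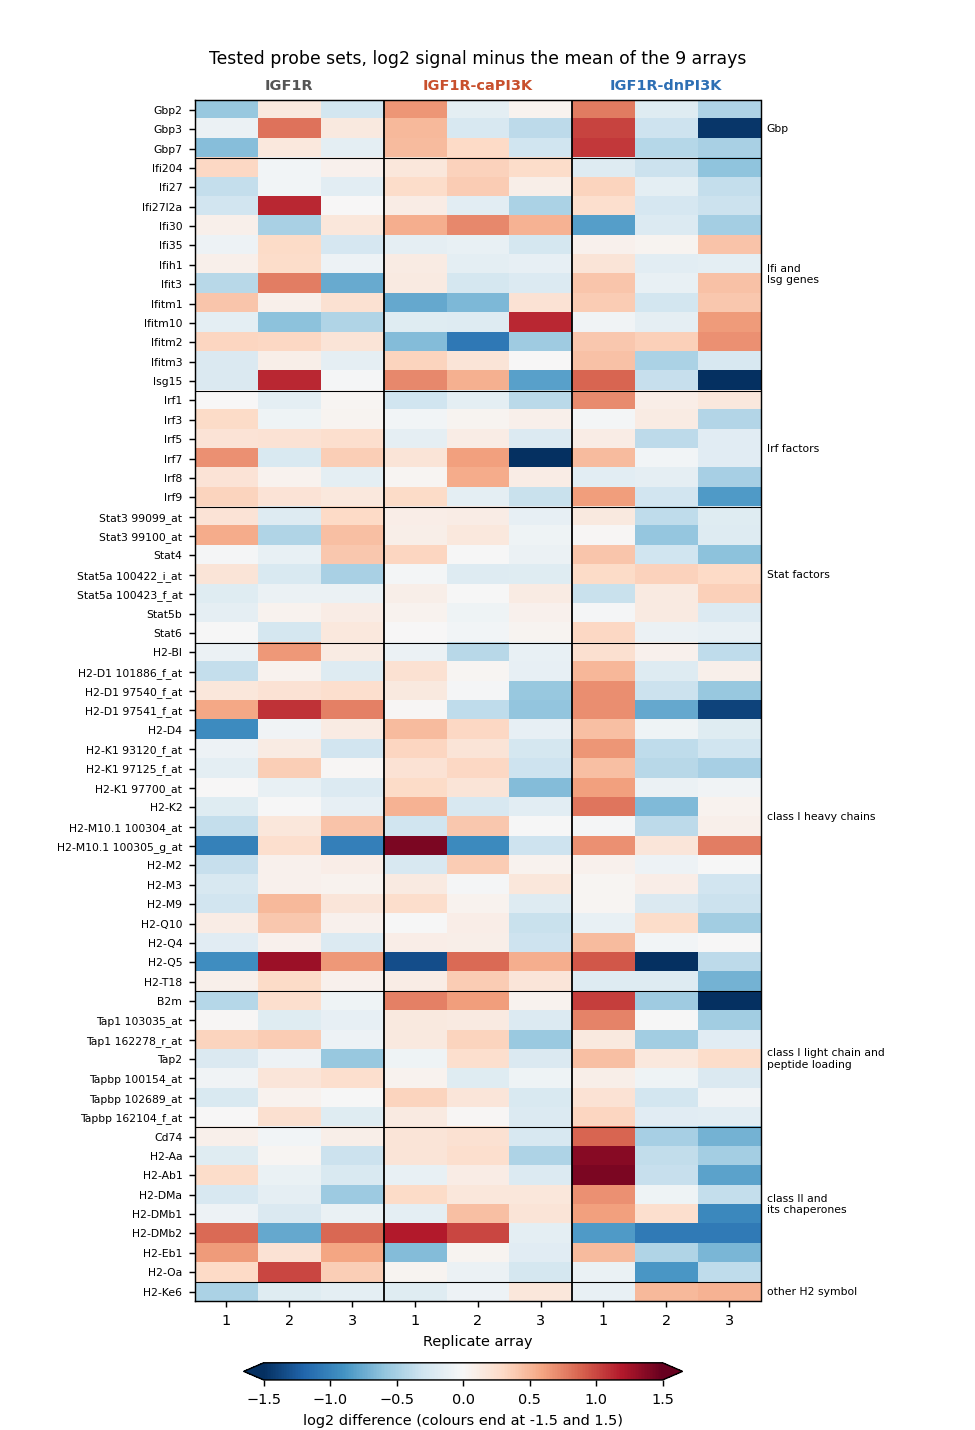
Log2 signal of the 62 tested member probe sets (rows, grouped by role) on the 9 arrays (columns), as the difference from the mean of the 9 arrays; red is higher and blue lower. The column of IGF1R-dnPI3K replicate 1 is red in most class I, class II and Gbp rows, and it is the highest of the 9 in 24 rows.

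Class I heavy chains held 24 member probe sets of 16 genes, of which 18 were tested. None was called in any comparison, and their median log2 differences were 0.06 (IGF1R-caPI3K against IGF1R), -0.10 (IGF1R-dnPI3K against IGF1R) and 0.08 (IGF1R-caPI3K against IGF1R-dnPI3K). The brightest probe set of H2-K1, a classical heavy chain, had signals of 3934, 4518 and 3383 in IGF1R, 5166, 4753 and 3459 in IGF1R-caPI3K, and 6559, 3180 and 3354 in IGF1R-dnPI3K. The groups overlapped, with the highest and the lowest value both in IGF1R-dnPI3K. Its other 2 tested probe sets differed by 0.26 at most in size in the fits.

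The 3 probe sets of H2-D1, the other classical heavy chain, did not go together. The brightest had means of 3060 ± 432 in IGF1R mice, 3526 ± 433 in IGF1R-caPI3K mice and 3794 ± 931 in IGF1R-dnPI3K mice (SD, n = 3). On the dimmest the signals were 392, 557 and 442 in IGF1R, 266, 202 and 174 in IGF1R-caPI3K, and 425, 154 and 101 in IGF1R-dnPI3K. On this probe set every IGF1R-caPI3K mouse was below every IGF1R mouse, at a log2 difference of -1.12 ± 0.42 (SE), which did not pass (limma adjusted p = 0.199). Against IGF1R, the IGF1R-dnPI3K difference was -1.29 ± 0.42 (limma adjusted p = 0.0651). All 3 names mark possible shared targets, so that reads of related heavy chains on them cannot be told apart.

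H2-T18, a nonclassical class I chain, had signals of 1340, 1551 and 1326 in IGF1R, 1378, 1659 and 1447 in IGF1R-caPI3K, and 1116, 1114 and 776 in IGF1R-dnPI3K. The IGF1R-dnPI3K mice lay below the other 6, at -0.50 ± 0.16 (SE) against IGF1R, just short of the threshold (limma adjusted p = 0.0555). It is 1 of the members in which IGF1R-dnPI3K replicate 1 did not stand clear of replicate 2.

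The light chain and the peptide loading genes held 7 tested probe sets of 4 genes, and none was called. B2m encodes beta-2-microglobulin, the light chain of all class I molecules, and was among the brightest members. It had signals of 3694, 5909 and 4766 in IGF1R, 8407, 7660 and 5172 in IGF1R-caPI3K, and 10184, 3433 and 1551 in IGF1R-dnPI3K. The highest and the lowest of the 9 values thus came from mice of the same group. The fitted differences were 0.56 ± 0.52 for IGF1R-caPI3K against IGF1R (limma adjusted p = 0.594) and -0.31 ± 0.52 for IGF1R-dnPI3K against IGF1R (limma adjusted p = 0.709). Left without IGF1R-dnPI3K replicate 1, the latter was -1.03 ± 0.32 (limma adjusted p = 0.0437), and IGF1R-caPI3K exceeded IGF1R-dnPI3K by 1.59 ± 0.32 (limma adjusted p = 0.0188). This setting takes out the highest of the 9 values and leaves 2 mice in that group. Replicate 3, the array least like the others, is 1 of them and had the 1551. B2m was called in no other setting.

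Tap2, a subunit of the transporter that moves peptides into the endoplasmic reticulum, had 211, 233 and 166 in IGF1R, 236, 292 and 212 in IGF1R-caPI3K, and 336, 275 and 297 in IGF1R-dnPI3K. All IGF1R-dnPI3K mice were above all IGF1R mice. The difference of 0.58 ± 0.19 did not pass as deposited (limma adjusted p = 0.0648), and passed with arrays quantile normalized (0.75 ± 0.18, limma adjusted p = 0.0279) or scaled to a common median (0.75 ± 0.18, limma adjusted p = 0.0255). Tap1, the partner subunit, had 289, 251 and 262 in IGF1R, 317, 314 and 247 in IGF1R-caPI3K, and 480.2, 284 and 199 in IGF1R-dnPI3K on its brighter probe set. Those groups overlapped. The 3 probe sets of Tapbp, the tapasin that bridges the transporter and the class I molecule, differed by at most 0.19 in size in all comparisons.

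Promoter sequences of 55 of the 73 member genes were at hand, from RefSeq on GRCm38.p6, as windows from 250 bases before to 50 after each start. Each was searched on both strands for 3 motifs: the interferon-stimulated response element as 2 runs of GAAA with any 2 bases between them, the site of Stat dimers as TTCNNNGAA, and the Y box of class I and class II promoters as CTGATTGG. Matches of a motif with others or with itself could overlap. The response element was in 14 of 70 member windows (20%), against 3.44% of 32851 windows of that length. The Stat site was in 15.7% against 8.3%, and the Y box in 18.6% against 4.1%. By role, the response element was in 4 of 4 Gbp genes and 7 of 17 Ifi and Isg genes, and in 0 of 9 class I heavy chain and 0 of 8 class II genes with a window. The Y box was in 5 of 9 class I heavy chain and 4 of 8 class II genes. A match is a run of letters and not a measured site.

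Shown are the 250 bases before the start for the light chain and for Gbp7, both highest on IGF1R-dnPI3K replicate 1, 5' to 3' on the strand of the gene. Capitals mark the response element in both, at position -139 from the start in B2m and -53 in Gbp7, and in Gbp7 also 2 Stat sites at -106 and -87. They lie upstream of the transcripts (B2m chr2:122147437-122147686, plus strand; Gbp7 chr3:142530086-142530335, plus strand).
B2m: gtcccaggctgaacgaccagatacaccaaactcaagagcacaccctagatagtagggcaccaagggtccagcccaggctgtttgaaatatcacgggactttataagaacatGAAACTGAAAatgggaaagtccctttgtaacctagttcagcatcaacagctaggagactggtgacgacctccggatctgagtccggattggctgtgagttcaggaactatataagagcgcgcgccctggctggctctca
Gbp7: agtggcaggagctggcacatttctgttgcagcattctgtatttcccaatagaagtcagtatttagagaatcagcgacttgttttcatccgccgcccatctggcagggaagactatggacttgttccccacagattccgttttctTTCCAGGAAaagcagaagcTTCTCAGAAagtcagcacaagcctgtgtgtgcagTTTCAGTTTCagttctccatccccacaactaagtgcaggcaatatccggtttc

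Class II genes and their chaperones held 13 probe sets of 12 genes, of which 8 were tested. Cd74, the invariant chain that guides class II molecules through the cell, had signals of 1724, 1585 and 1741 in IGF1R, 1872, 1920 and 1383 in IGF1R-caPI3K, and 2994, 1157 and 1002 in IGF1R-dnPI3K. The IGF1R mice lay close together, while the IGF1R-dnPI3K mice held the highest value and the 2 lowest. Cd74 was level between groups in the fit, at 0.02 ± 0.33 and -0.15 ± 0.33 against IGF1R (limma adjusted p = 0.979 and 0.777). Without IGF1R-dnPI3K replicate 1 the IGF1R-dnPI3K difference was -0.64 ± 0.15 (limma adjusted p = 0.0165). That setting takes out the highest value and leaves the 2 lowest, and Cd74 was called in no other.

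H2-Aa and H2-Ab1 encode the alpha and beta chains of the same class II molecule. H2-Aa had 582, 673 and 528 in IGF1R, 755, 783 and 479 in IGF1R-caPI3K, and 1701, 509 and 462 in IGF1R-dnPI3K. H2-Ab1 had 300.1, 232 and 212 in IGF1R, 231, 268 and 216 in IGF1R-caPI3K, and 659.6, 195 and 143 in IGF1R-dnPI3K. In both genes a single mouse, IGF1R-dnPI3K replicate 1, was above the other 8, which overlapped between groups. Neither gene was called, with fitted differences of 0.32 ± 0.41 and 0.10 ± 0.45 for IGF1R-dnPI3K against IGF1R.

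H2-Oa was the member called between IGF1R-dnPI3K and IGF1R. It encodes the alpha chain of the DO molecule, which restrains the DM molecule in loading peptides onto class II and is made chiefly in B cells. Its signals were 169, 275 and 178 in IGF1R, 141, 129 and 115 in IGF1R-caPI3K, and 128, 74.9 and 105 in IGF1R-dnPI3K. Mice of both PI3K groups lay below all IGF1R mice, and the PI3K groups overlapped. Means were 207 ± 58.7, 128 ± 13.0 and 103 ± 26.6 (SD, n = 3). H2-Oa fell by 1.01 on the log2 scale in IGF1R-dnPI3K (SE 0.28, limma adjusted p = 0.0397, lower in 3 of 3 mice). In IGF1R-caPI3K the difference was -0.66 ± 0.28 (limma adjusted p = 0.247). The call was lost on leaving out any of 8 arrays (limma adjusted p 0.0563 to 0.136), and held without IGF1R-dnPI3K replicate 1 (0.0192). It was also lost with quantile normalization (limma adjusted p = 0.0596) and with scaling to a common median (limma adjusted p = 0.0587). With a block for the series of mouse numbers the difference rests on IGF1R-dnPI3K replicate 1 alone and was -0.64 ± 0.45. In the series with 1 mouse per group it was -0.48.

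No DM chain was called, and the partner of H2-Oa was not tested. H2-DMa, a chain of the DM molecule, had 389.5, 419 and 315 in IGF1R, 561, 517 and 518 in IGF1R-caPI3K, and 738, 441 and 359 in IGF1R-dnPI3K on its tested probe set. All IGF1R-caPI3K mice were above the IGF1R mice, at 0.51 ± 0.23 (limma adjusted p = 0.271). H2-DMb2, a DM beta chain, had 122, 39.7 and 123 in IGF1R, 154, 136 and 61.3 in IGF1R-caPI3K, and 37.5, 30.5 and 26.8 in IGF1R-dnPI3K. Its IGF1R-dnPI3K mice lay near the floor of 32.4, at -1.30 ± 0.54 against IGF1R (limma adjusted p = 0.124). H2-DMb1, another beta chain, differed there by 0.10 ± 0.35 (limma adjusted p = 0.868). H2-Ob, the beta chain of DO, was not tested, with signals of at most 50.6. H2-Eb1, the beta chain of the second class II molecule, had 347, 259.7 and 335 in IGF1R, 141, 229.9 and 198 in IGF1R-caPI3K, and 308, 162 and 138 in IGF1R-dnPI3K. Its IGF1R-caPI3K mice lay below the IGF1R mice, at -0.74 ± 0.30 (limma adjusted p = 0.226).

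The promoters of H2-Aa and H2-Oa, which differ in how they behaved, each hold 1 Y box, in capitals, at positions -51 and -46. Sequences are the 250 bases before the start (H2-Aa chr17:34287824-34288073, minus strand; H2-Oa chr17:34092129-34092378, plus strand), 5' to 3' on the strand of the gene.
H2-Aa: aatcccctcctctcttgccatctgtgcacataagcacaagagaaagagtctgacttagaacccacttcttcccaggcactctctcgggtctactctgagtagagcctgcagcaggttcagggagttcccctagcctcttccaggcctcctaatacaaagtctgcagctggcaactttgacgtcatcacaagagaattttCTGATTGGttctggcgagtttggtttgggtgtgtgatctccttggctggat
H2-Oa: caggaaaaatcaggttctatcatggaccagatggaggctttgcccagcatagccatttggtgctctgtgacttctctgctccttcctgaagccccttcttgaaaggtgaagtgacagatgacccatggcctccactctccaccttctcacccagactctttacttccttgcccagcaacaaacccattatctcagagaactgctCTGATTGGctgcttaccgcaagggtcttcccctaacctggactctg

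Irf factors held 9 probe sets of 7 genes, 6 of them tested and none called. Irf1, an early target of interferon gamma that acts on class I genes, had 438, 394 and 446 in IGF1R, 355, 397 and 329.7 in IGF1R-caPI3K, and 713, 469 and 489.8 in IGF1R-dnPI3K. The IGF1R-dnPI3K mice were above the other 6, with replicate 1 highest. Irf1 was 0.61 ± 0.17 lower in IGF1R-caPI3K than in IGF1R-dnPI3K by fit, which did not pass (limma adjusted p = 0.133). Against IGF1R the IGF1R-dnPI3K difference was 0.36 ± 0.17 (limma adjusted p = 0.175), and 0.53 ± 0.15 with arrays scaled to a common median (limma adjusted p = 0.0415). Irf9, which joins Stat factors downstream of type I interferon, had 489, 445 and 433 in IGF1R, 473, 349.8 and 308 in IGF1R-caPI3K, and 598, 317 and 214 in IGF1R-dnPI3K. Those groups overlapped. Irf3, which is activated by sensors of viral RNA and DNA, and Irf8, a factor of myeloid cells, overlapped between IGF1R-dnPI3K and IGF1R on their tested probe sets.

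Stat factors held 7 tested probe sets of 5 genes, Stat3, Stat4, Stat5a, Stat5b and Stat6, with none called. Stat3, which serves the interleukin 6 family, was the brightest, at 1988 ± 344 in IGF1R mice, 1869 ± 165 in IGF1R-caPI3K mice and 1684 ± 315 in IGF1R-dnPI3K mice (SD, n = 3). Stat5a, a factor of growth hormone and prolactin signalling, had 1188, 888 and 747 in IGF1R, 1020.1, 916 and 921 in IGF1R-caPI3K, and 1268, 1323 and 1283 in IGF1R-dnPI3K on one probe set. There the IGF1R-dnPI3K mice were above the other 6, at 0.48 ± 0.16 against IGF1R (limma adjusted p = 0.0628). On the other Stat5a probe set the same difference was 0.17 ± 0.16, and those groups overlapped, so that the 2 disagree in size. Stat5b and Stat6 differed by 0.07 at most in size in any comparison.

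Gbp genes encode large GTPases that are strongly induced by interferon gamma. Of 4, 3 were tested and none was called. Gbp2 had 321, 526 and 395 in IGF1R, 751, 431 and 495 in IGF1R-caPI3K, and 817, 420 and 345 in IGF1R-dnPI3K. Gbp7 had 378, 656 and 533 in IGF1R, 815, 721 and 478 in IGF1R-caPI3K, and 1225, 436 and 421 in IGF1R-dnPI3K. Gbp3 had 359, 673 and 424 in IGF1R, 537, 324 and 292 in IGF1R-caPI3K, and 774, 309 and 139 in IGF1R-dnPI3K. In all 3 genes the highest mouse of the 9 was IGF1R-dnPI3K replicate 1, and the highest IGF1R mouse was replicate 2. Their differences from IGF1R ran from -0.54 to 0.42, with SEs of 0.32 to 0.51.

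**Figure D4:**
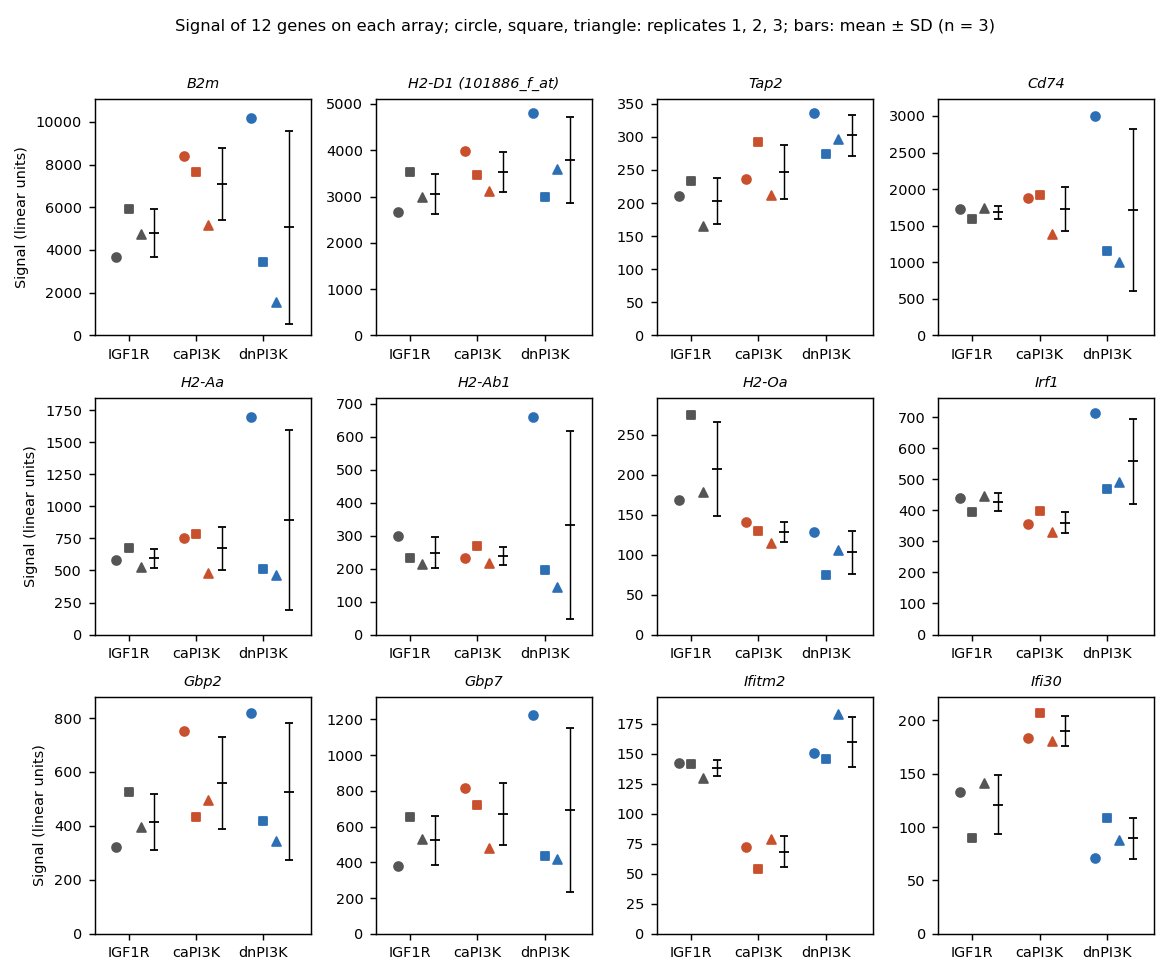
Deposited signal (y axes, linear units starting at 0) of 12 member genes on each array, with replicates 1, 2 and 3 as circle, square and triangle and bars for the mean ± SD (n = 3). In B2m, Cd74, H2-Aa, H2-Ab1, Gbp2 and Gbp7 the IGF1R-dnPI3K circle is above all other points, while in Ifitm2 the 3 IGF1R-caPI3K points lie at 54.1 to 78.5, below the other 6.

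Ifi and Isg genes held 22 probe sets of 20 genes, 12 of them tested. Ifitm2 belongs to the membrane proteins that restrict the entry of viruses. Its signals were 142, 141 and 130.1 in IGF1R, 72.6, 54.1 and 78.5 in IGF1R-caPI3K, and 150.3, 145 and 183 in IGF1R-dnPI3K. The IGF1R-caPI3K mice lay below all others, near the highest signal of 63.9 on the 9 Y-linked probe sets, which have no transcript in female mice. Means were 138 ± 6.63, 68.4 ± 12.7 and 159.6 ± 20.5 (SD, n = 3). Ifitm2 was lower in IGF1R-caPI3K than in IGF1R-dnPI3K, at a log2 difference of -1.23 ± 0.26 (limma adjusted p = 0.0463, lower in 3 of 3 mice). The size depends on the floor, and was -0.53 ± 0.13 with the floor at the 40th percentile (limma adjusted p = 0.0854). The call was also lost with the floor at the 10th percentile (limma adjusted p = 0.0504). Against IGF1R the IGF1R-caPI3K difference was -1.03 ± 0.26 and did not pass (limma adjusted p = 0.0986). The call between the PI3K groups was lost on leaving out any of 8 arrays (limma adjusted p 0.0814 to 0.156), and held without IGF1R-dnPI3K replicate 1 (0.0323). With a block for the series of mouse numbers the difference rests on IGF1R-dnPI3K replicate 1 alone and was -1.14 ± 0.44. In the series with 1 mouse per group it was -1.05.

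The other Ifitm genes were not called. Ifitm3, the brightest of them, had 3585, 4448 and 3814 in IGF1R, 5279.6, 4791 and 4199.8 in IGF1R-caPI3K, and 5649.7, 3015 and 3543 in IGF1R-dnPI3K, and its groups overlapped in every comparison. Ifitm1 had 159.8, 126 and 139.7 in IGF1R, 70.1, 74.6 and 139 in IGF1R-caPI3K, and 155, 98.6 and 158 in IGF1R-dnPI3K, so that 2 of 3 IGF1R-caPI3K mice were low. Its difference from IGF1R-dnPI3K was -0.58 ± 0.33 (limma adjusted p = 0.427). The Ifitm2 promoter, shown because it belongs to the called member, holds 1 match to the response element at position -46, in capitals (chr7:140955962-140956211, minus strand, the 250 bases before the start, 5' to 3' on the strand of the gene).
Ifitm2: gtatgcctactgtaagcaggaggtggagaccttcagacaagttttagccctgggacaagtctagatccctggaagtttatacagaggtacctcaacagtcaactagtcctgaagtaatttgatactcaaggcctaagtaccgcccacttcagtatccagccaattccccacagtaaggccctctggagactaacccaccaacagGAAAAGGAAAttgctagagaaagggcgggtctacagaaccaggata

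Ifi30, a thiol reductase of lysosomes that opens disulfide bonds of proteins bound for class II, was not called. It had 133, 89.6 and 141 in IGF1R, 184, 207 and 181 in IGF1R-caPI3K, and 71.0, 109 and 88.2 in IGF1R-dnPI3K. The IGF1R-caPI3K mice were above the other 6, at 1.11 ± 0.27 against IGF1R-dnPI3K, short of the threshold (limma adjusted p = 0.0848). Ifi204, a nuclear protein of the interferon-inducible p200 family, had 393, 309 and 333 in IGF1R, 356, 405 and 384 in IGF1R-caPI3K, and 279, 253 and 209 in IGF1R-dnPI3K on its tested probe set. Its IGF1R-dnPI3K mice lay below the other 6, at -0.48 ± 0.16 against IGF1R (limma adjusted p = 0.0681). Ifi27 had means of 834 ± 89.7, 1122 ± 114 and 924 ± 234 in IGF1R, IGF1R-caPI3K and IGF1R-dnPI3K (SD, n = 3), and Ifi35 overlapped between groups in each comparison with IGF1R.

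H2-Ke6 carries an H2 symbol from its place in the class II region and encodes a steroid dehydrogenase, not an antigen-presenting molecule. Its tested probe set had 679.7, 831 and 854 in IGF1R, 834, 897 and 1058 in IGF1R-caPI3K, and 871, 1318 and 1353 in IGF1R-dnPI3K. Here IGF1R-dnPI3K replicate 1 was the lowest of its group. The difference of 0.56 ± 0.18 from IGF1R was short of the threshold (limma adjusted p = 0.0627).

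The remaining 30 probe sets were too dim to be tested. They come from 29 genes, some of which have another probe set that was tested. Their mean signals ran from 4.64 to 117, and the highest single value was 217. In 20 of them the mean was within the 63.9 reached by Y-linked probe sets, and in 10 every array was. Among them were all members for Mx1, Mx2, Usp18 and Oas1g, the classic antiviral effectors and the protease that takes Isg15 off its targets. Mx2 was above that level on every array (68.0 to 120.3) and was left out by the filter alone. Differences in the untested members were not assessed.

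Genes around the members in the pathway came from lists by role. Of 14 measured interferon ligands and receptors 8 were tested, and the ligands Ifna2, Ifna11, Ifnb1 and Ifng were within the Y-linked background on every array. None was called between IGF1R-caPI3K and IGF1R, and 1 between IGF1R-dnPI3K and IGF1R, where the background was 13.5%. It was Ifngr1, the ligand-binding chain of the interferon gamma receptor, with 698, 581 and 616 in IGF1R, 463, 353 and 412 in IGF1R-caPI3K, and 486, 372 and 243 in IGF1R-dnPI3K. Mice of both PI3K groups were below all IGF1R mice, and Ifngr1 fell by 0.84 ± 0.23 in IGF1R-dnPI3K (limma adjusted p = 0.0368). Of the 12 tested genes of receptor kinases and their inhibitors none was called in any comparison. An unadjusted limma p under 0.05 occurred on 2, 1 and 1 of 14 probe sets, against 18.4%, 32.2% and 15.4% of all. In IGF1R-dnPI3K against IGF1R 13 of the 14 were below 0, at a median of -0.29 (all probe sets -0.09). In IGF1R-caPI3K against IGF1R 7 were below 0, and between the PI3K groups 11 were above 0. Of 3 tested nucleic acid sensors and adaptors 1 was called, Tbk1, the kinase that activates Irf3. It had 534, 602 and 634 in IGF1R, 347, 409 and 408.5 in IGF1R-caPI3K, and 372, 391 and 329 in IGF1R-dnPI3K. Tbk1 fell by 0.70 ± 0.14 in IGF1R-dnPI3K against IGF1R (limma adjusted p = 0.0163), and was lower by a like amount, -0.61 ± 0.14, in IGF1R-caPI3K without passing (limma adjusted p = 0.0844).

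Of 28 tested interferon-induced genes outside the member families, on 34 probe sets, 3 rose and 1 fell in IGF1R-dnPI3K against IGF1R, against 13.5% of all tested probe sets called (5.7% higher, 7.8% lower). Psme1 and Psmb10 rose, which encode an activator and a subunit of the immunoproteasome, the form of the proteasome that supplies class I peptides. Ly6e rose by 0.56 ± 0.14 (limma adjusted p = 0.0289) and Pml fell by 0.44 ± 0.13 (limma adjusted p = 0.0498). Psme1 had 1932, 1847 and 1716 in IGF1R, 2081, 2484 and 2394 in IGF1R-caPI3K, and 3561, 3454 and 3924 in IGF1R-dnPI3K. The 3 groups did not overlap. Psme1 rose by 0.99 ± 0.11 in IGF1R-dnPI3K against IGF1R (limma adjusted p = 0.00347) and was lower in IGF1R-caPI3K than in IGF1R-dnPI3K, at -0.65 ± 0.11 (limma adjusted p = 0.0204). Psmb10 rose by 0.75 ± 0.14 in IGF1R-dnPI3K (limma adjusted p = 0.0146).

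The other 2 inducible proteasome subunits had their highest signal on IGF1R-dnPI3K replicate 1, as had 7 of 18 class I heavy chains and 5 of 8 class II members. Psmb8 had 455, 584 and 376 in IGF1R, 603, 619 and 551 in IGF1R-caPI3K, and 1045, 529 and 501 in IGF1R-dnPI3K. Psmb9 had 272, 303 and 298 in IGF1R, 252, 330.1 and 303 in IGF1R-caPI3K, and 534, 243 and 283 in IGF1R-dnPI3K. Neither was called, and in both IGF1R-dnPI3K replicate 1 was above the other 8 mice. The GTPases Irgm2 and Igtp had the same mouse highest, at 688 against 208 and 255 and at 370.4 against 104 and 78.5 in the other IGF1R-dnPI3K mice. Over the 34 probe sets of the list this mouse was highest of its group in 20 (58.8%, all tested probe sets 41%). This share was not particular to it. IGF1R replicate 2 was highest of its group in 20 as well (58.8%, all 35.1%), and IGF1R-caPI3K replicate 1 in 19 (55.9%, all 33%).

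Peptide supply and antigen processing had 16 tested genes on 19 probe sets. In IGF1R-dnPI3K against IGF1R 4 probe sets rose, those of Psme1, Psmb10, Rfxank and Ctsl, and 2 fell, those of Pdia3 and 1 of 3 tested for Ctsb, beside the same 13.5% over all tested probe sets. Rfxank, a subunit of the factor that binds class II promoters, rose by 0.68 ± 0.14 (limma adjusted p = 0.0175). Ctsl, a lysosomal protease that trims the invariant chain, rose by 0.89 ± 0.15 (limma adjusted p = 0.0113). Pdia3, which helps to fold class I heavy chains, fell by 1.49 ± 0.34 (limma adjusted p = 0.0219). The Ctsb probe set fell by 0.90 ± 0.24 (limma adjusted p = 0.0355), and the other 2 differed by 0.04 and -0.11. Ciita, the master regulator of class II genes, was not called, at -0.13 ± 0.36 (limma adjusted p = 0.819).

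With a block for the series of mouse numbers, the differences of IGF1R-dnPI3K from the other groups rest on replicate 1 alone. Passing or failing the threshold with the block therefore cannot decide about a pathway gene. Pdia3 was then at -0.89 ± 0.40 and Ifngr1 at -0.45 ± 0.30 against IGF1R, while Psme1 was at 1.08 ± 0.16 and Psmb10 at 0.89 ± 0.22. Over the alternatives of the analysis Ifngr1 passed in 9 of 21, Ly6e in 10 of 20, Ctsb in 10 of 21 and Pml in 3 of 21.

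Cells that carry class II molecules were followed by marker lists. In ventricle RNA, fewer cells of a type and less RNA per cell cannot be told apart. Of 19 measured macrophage and myeloid genes 15 were tested, on 18 probe sets. Of these probe sets 3 fell in IGF1R-dnPI3K against IGF1R, where 7.8% of all tested probe sets fell. None was called in the other comparisons. In IGF1R-dnPI3K against IGF1R 16 of the 18 were below 0, at a median of -0.39 (all probe sets -0.09). Between IGF1R-caPI3K and IGF1R-dnPI3K 18 of 18 were above 0, at a median of 0.56 (all 0.05). There 10 of 18 had an unadjusted limma p under 0.05, against 15.4% of all probe sets. In IGF1R-caPI3K against IGF1R 9 were above and 9 below 0. The list's summed signal was 11557 to 12951 in IGF1R, 12586 to 13569 in IGF1R-caPI3K, and 11845, 7979 and 8868 in IGF1R-dnPI3K replicates 1, 2 and 3. Thus it was highest in replicate 1 within its group, as in 14 of its 18 tested probe sets (77.8%), and lay within the IGF1R range there. No myeloid gene was within the Y-linked background on every array.

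The B cell list summed to 1547 to 2177 in IGF1R, 1638 to 1892 in IGF1R-caPI3K, and 2253, 1843 and 1646 in IGF1R-dnPI3K, and Cr2, Vpreb3 and Cd72 of its 10 measured genes stayed within the Y-linked background on every array. The dendritic cell list summed to 2333 to 2576, 1897 to 2113 and 1885 to 2119. In the T and NK cell list 7 of 13 measured genes (Cd3d, Cd3e, Cd3g, Cd8a, Cd8b1, Cd2 and Cd5) were within the background on every array, and its sums were 854 to 967, 752 to 939 and 745 to 806. The fibroblast list summed to 38484 to 42860.0 in IGF1R, 41561 to 46034 in IGF1R-caPI3K, and 34707, 28804 and 30027 in IGF1R-dnPI3K. Of its 19 probe sets 8 were lower and 2 higher in IGF1R-dnPI3K against IGF1R. Over all tested probe sets 7.8% were called lower and 5.7% higher in that comparison. In IGF1R-caPI3K against IGF1R 0.0633% of all were lower and 0.152% higher. In IGF1R-caPI3K against IGF1R-dnPI3K these shares were 0.506% and 0.734%. The endothelial list summed to 13958 to 16059, 12699 to 14028 and 13209 to 15747, and the neutrophil list to 884 to 1252, 926 to 1257 and 1096 to 1539. By limma, 1 of 7 dendritic cell probe sets was lower in each PI3K group against IGF1R. Of 5 B cell probe sets 1 was lower in IGF1R-caPI3K against IGF1R and 1 against IGF1R-dnPI3K. Of 14 endothelial probe sets 1 rose and 2 fell in IGF1R-dnPI3K against IGF1R, and 4 of 19 fibroblast probe sets were higher in IGF1R-caPI3K than in IGF1R-dnPI3K. The cardiomyocyte list summed to 191931 to 205502 in IGF1R, 207209 to 218914 in IGF1R-caPI3K, and 225106, 225785 and 276356 in IGF1R-dnPI3K replicates 1, 2 and 3, with 6 of 12 probe sets higher and 1 lower in IGF1R-dnPI3K against IGF1R. Sums of all cell type marker lists but the neutrophil and cardiomyocyte lists were highest in IGF1R-dnPI3K replicate 1 within its group, as were 46 of the 62 tested members. The T and NK cell sums of that group lay close together, at 806, 790 and 745. They rest mostly on dim probe sets, since 3 of 16 were tested in that list and 5 of 29 in the B cell list. By probe set, IGF1R-dnPI3K replicate 1 was highest in 12 of 19 for fibroblasts, 7 of 14 for endothelium and 4 of 5 for B cells. It was highest in 3 of 7 for dendritic cells and 1 of 3 for T and NK cells, against 41% of all tested probe sets. Mice of the other groups had like shares within their own group. IGF1R replicate 3 was highest in 12 of 19 for fibroblasts. IGF1R replicate 2 was highest in 8 of 14 for endothelium, 4 of 5 for B cells and 12 of 18 for myeloid genes. IGF1R-caPI3K replicate 2 was highest in 4 of 5 for B cells. The part of these cells in the members' signals was not tested.

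Of the settings tried, leaving out IGF1R-dnPI3K replicate 1 changed the count of called members most in both comparisons with the IGF1R-dnPI3K group, and left it at 0 between IGF1R-caPI3K and IGF1R. Against IGF1R, 11 members were then called in IGF1R-dnPI3K, 10 lower and 1 higher, where 23.6% of all tested probe sets were called. The lower ones were B2m, Cd74, Gbp3, both dimmer H2-D1 probe sets, H2-Eb1, H2-Oa, H2-T18, Ifi204 and Irf9, and the higher one was H2-Ke6. Between the PI3K groups 6 were called, B2m, Cd74, H2-T18, Ifi204 and Ifitm3 higher and Ifitm2 lower in IGF1R-caPI3K, where the background was 6.82%. The IGF1R-dnPI3K group then holds 2 mice, both from the series with no other mouse.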

How the data were processed

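Signals of 9 arrays were analysed, 3 per group, with groups taken from the sample titles and replicates numbered in deposit order. The deposited values are intensity on a linear scale, 1 per probe set and array, and show that the authors scaled each array to 1 shared 2% trimmed mean. The sources used here do not name the signal algorithm or give detection calls. Symbols came from the platform annotation, and 0 member symbols changed on updating through the RefSeq table. The 66 control probe sets were left out, and low values were set to 32.4, the 20th percentile (0.346% of tested values), before log2. The 7898 probe sets tested were fitted together in limma 3.58.1 (R 4.3.3) with 3 groups and variances that follow the mean, and adjusted by Benjamini-Hochberg over all of them in each contrast. The p-values rest on 1 spread per probe set, shared by the 3 groups and drawn towards that of probe sets of like signal. The comparison of IGF1R-caPI3K with IGF1R thus also carries the spread of the IGF1R-dnPI3K mice, whose median SD was the largest. The number of 3 mice a group limits the precision. The script was tested on simulated data.

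The members, the lists of pathway genes and markers and the tests were chosen with earlier results of these data known. Genes named were members called in any comparison, up to 4 per role of highest signal and the 5 of lowest p per comparison. Ifitm1, H2-Ob, H2-DMb1, H2-DMb2, Mx1, Mx2, Usp18, Oas1g and the genes of the pathway lists were named after their values had been seen. Alternatives were 2 other scalings, 2 floors, 2 filters, 2 models of the variance, weights for arrays, a block for the series of mouse numbers, only the 2 groups compared, leaving out probe sets marked as shared, and leaving out each array. Applying them to the called genes of the pathway lists was chosen after seeing the data.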

Additional observations from a re-analysis of the deposited data

How the results depend on the processing

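No paired analysis was possible because replicates were numbered in deposit order and each mouse gave 1 array. In the counts of called members that follow, brackets hold the share of all tested probe sets called. Between IGF1R-caPI3K and IGF1R the count was 0 as reported (0.215%). It was 2 with array weights (9.84%) and 2 with only the 2 groups compared (8.85%). On leaving out 1 array it was 0 to 1, with 1 without IGF1R-dnPI3K replicate 3 (6.96%). Between IGF1R-dnPI3K and IGF1R the count was 1 as reported (13.5%). It was 2 with quantile normalization (12.7%), 4 with scaling to a common median (14.8%) and 4 with array weights (18.4%). With no filter it was 0 (3.12%), as with only the 2 groups compared (1.67%). On leaving out 1 array it was 0 to 11 (23.6% where it was 11). Between IGF1R-caPI3K and IGF1R-dnPI3K the count was 1 as reported (1.24%) and 2 with array weights (4.41%). It was 0 with the floor at the 10th percentile (1.22%), with no filter (0.29%) and with the filter at the 60th percentile (1.98%). With only the 2 groups compared it was also 0 (0.165%), and on leaving out 1 array 0 to 6. With a block for the series of mouse numbers the members' median log2 difference was 0.25 for IGF1R-dnPI3K against IGF1R and -0.35 between the PI3K groups. IGF1R-dnPI3K replicates 2 and 3 share a series with no other mouse. With the block the differences of that group thus rest on replicate 1 alone, and calls with it cannot decide about a gene. The cause of the changes in the counts was not tested. H2-Oa passed in 7 of 20 alternatives (-1.22 to -0.64, limma adjusted p 0.0138 to 0.613), as did Ifitm2 (-1.34 to -0.53, limma adjusted p 0.0192 to 0.696), and neither changed sign. Of the called pathway genes none changed sign; Psme1 against IGF1R passed in 20 of 21 alternatives, and none passed with the block. For the 20 dim members whose mean lies within the Y-linked background, signal over background limits what can be seen.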

Other observations

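Among the 15 probe sets with several symbols that include a member family, a probe set shared by H2-Q9, H2-Q7 and H2-Q5, class I heavy chains, had 1986, 2256 and 2359 in IGF1R, 2323, 2128 and 1704 in IGF1R-caPI3K, and 3695, 1789 and 1839.5 in IGF1R-dnPI3K. IGF1R-dnPI3K replicate 1 was the highest of the 9, and the probe set was not called in any comparison. A probe set shared by H2-T23 and a pseudogene had 479.6, 551 and 412 in IGF1R, 538, 434 and 558 in IGF1R-caPI3K, and 794, 762 and 804 in IGF1R-dnPI3K, so that all IGF1R-dnPI3K mice were above the other 6. The difference from IGF1R was 0.72 ± 0.15 (limma adjusted p = 0.0172, higher in 3 of 3 mice). A probe set shared by Ifi203 and related loci, interferon-inducible genes of the p200 family, had 225, 179.9 and 166 in IGF1R, 125, 158 and 114 in IGF1R-caPI3K, and 125, 72.1 and 85.5 in IGF1R-dnPI3K, with all IGF1R mice above the other 6. Its IGF1R-dnPI3K difference from IGF1R was -1.04 ± 0.27 (limma adjusted p = 0.0342, lower in 3 of 3 mice). All 3 probe sets were picked after their values had been seen.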
